A study of Mus musculus with 21 samples.

Results

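The genes described here build the neuromuscular junction, the synapse through which a motor neuron drives a myofiber, and were read in 21 single mouse myofibers. They are the 5 genes of the muscle acetylcholine receptor (Chrna1, Chrnb1, Chrnd, Chrne and Chrng), the receptor kinase gene Musk, the receptor-clustering gene Rapsn, the acetylcholinesterase gene Ache with its collagen tail Colq, and the neural cell adhesion molecule gene Ncam1. Members were all probes whose gene name on the array was one of these 10, which gave 10 of 35527 gene names and 16 of the 55681 probes that are not controls. The test covered 46926 probes, all 16 among them, whose signal exceeded background significantly in 50% or more of the myofibers of either type.

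The myofibers were 11 of type 1 (slow) from the soleus and 10 of type 2B (fast) from the extensor digitorum longus (EDL) of 9 untreated CD1 mice aged 3 months. Each type came from 6 mice, of which 3 gave both types, and a myofiber is named here by muscle, number and mouse as the labels do (S6.4, E10.4). Each type came from 1 muscle, so that fiber type and muscle cannot be told apart. A piece of each myofiber was clipped to type its myosin by gel, and the sources used here do not say which stretch of the myofiber, with or without the synapse, gave the RNA. The labels call the mice male and the study's methods call them female; the Y-linked Ddx3y was well above background in all 11 and all 10 myofibers, and Xist in 4 of 11 and 5 of 10.

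Values are log2 of the background-subtracted array signal after quantile normalization between the arrays, and a difference is type 2B minus type 1 on that scale. The myosins followed the typing in 20 of 21 myofibers. Myh7, the slow myosin, had a median of 15.82 in type 1 and 7.09 in type 2B, and Myh4, the type 2B myosin, 3.77 and 15.58. The exception was S6.4, labelled type 1, where Myh7 was 9.22 and Myh2, the type 2A myosin, was 15.22. Differences between the types are also given without it for Ncam1, Musk, Ache, Chrna1, Chrnd and Chrne. The ranges, SDs and correlations include it. The arrays lay on 6 slides, and the 8 arrays of slide 1 were brighter, with a 75th percentile of the signal of 335 to 520 before normalization against 52.8 to 180 on the other slides. Slide 1 held 4 myofibers of each type and slides 2 and 3 held 2 of each, so that the types can be compared within these slides.

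At the mature junction nerve-derived agrin binds Lrp4 on the muscle and activates MuSK, which acts through Dok7 and rapsyn to pack acetylcholine receptors under the nerve ending. The receptor holds alpha, beta and delta subunits together with gamma in the fetal form and epsilon in the adult form, and these genes are read mainly by the few nuclei under the synapse. Acetylcholinesterase, anchored by ColQ, clears the transmitter. Ncam1 is found at the junction, on satellite cells and on nerve, and denervated muscle makes more of it along its whole length.

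The probes below, each 60 bases long, are shown for the member that differed most clearly and for Ache, which leaned the other way without passing. Sequences are those of the deposited array design, 5′ to 3′, on the mm9 build. The first lies in Ncam1 at chr9:49351182-49351241 on the minus strand and matches 3 RefSeq transcripts of the gene in the array's annotation. The other lies in Ache at chr5:137733122-137733181 on the plus strand.
Ncam1 A_55_P2028942: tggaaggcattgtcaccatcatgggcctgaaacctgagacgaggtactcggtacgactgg
Ache A_55_P2109326: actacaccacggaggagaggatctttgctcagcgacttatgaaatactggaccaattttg

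Of the 16 member probes 5 passed the test, all higher in type 1: the 3 probes of Ncam1 and both probes of Musk. Over all probes tested, 7.57% passed at a Benjamini-Hochberg adjusted p of 0.05, 4.09% higher in type 1 and 3.48% higher in type 2B. No member probe passed as higher in type 2B. None separated the 2 types completely, which 0.71% of all probes did with type 1 on top and 0.629% with type 2B on top. The median difference was -0.77 over the member probes and -0.15 over the 10 lead probes, the brightest probe of each gene, against 0.03 over all probes tested. With a Bonferroni threshold, which 1.43% of probes passed, 1 member probe remained, in Ncam1. With mouse as a fixed block, which compares the types within the 3 mice that gave both, 3 member probes passed, all in Ncam1. Of all probes 2.95% passed in that setting.

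**Figure D1:**
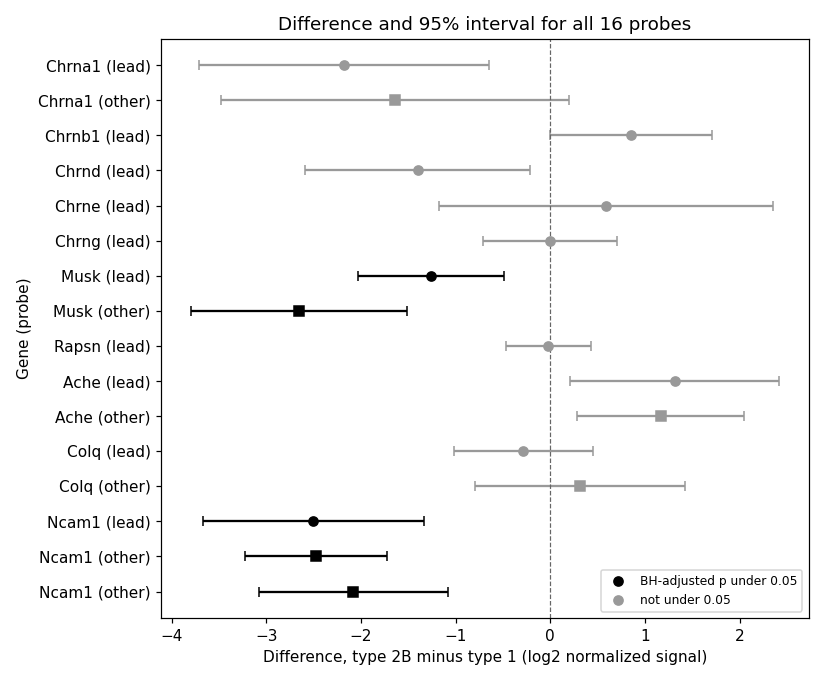
Difference between the types for the 16 probes (x axis, type 2B minus type 1 in log2 normalized signal, with the 95% interval; y axis, gene, with the lead probe as a circle and other probes as squares). The 5 black points, in Ncam1 and Musk, have adjusted p-values under 0.05 and all lie left of 0.

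Ncam1 was lower in type 2B at every one of its 3 probes. At A_51_P380309, which matches 2 of the 3 transcripts and lies at chr9:49310320-49310379, type 1 myofibers ran from 4.98 through a median of 6.79 to 7.97 and type 2B myofibers from 2.76 through 4.12 to 5.07. The groups overlapped by a single type 1 myofiber, since 10 of 11 lay above every type 2B myofiber, and the means of the mice did not overlap. The difference was -2.48 ± 0.36 (SE), which is 5.56-fold (95% interval 3.31 to 9.36), with a BH-adjusted p of 4.9e-05. The probe was well above background in 9 of 11 type 1 and 4 of 10 type 2B myofibers, so that the lower level is less firmly measured than the higher one. The fold depends on how background is treated: with normexp background correction the difference was -1.0 and still passed (adjusted p = 0.000567). That setting adds an offset of 50 to every signal, which shrinks differences between dim signals.

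The lead probe, A_55_P2028942, is the brighter one printed above. It ran from 8.32 through 10.41 to 11.29 in type 1 and from 5.17 through 7.38 to 10.67 in type 2B. Here 4 of 11 type 1 myofibers lay above all type 2B myofibers, and 7 of 10 type 2B myofibers lay below every type 1 myofiber; E7.7, E13.3 and E9.5 reached into the type 1 range. The difference was -2.50 ± 0.56, with a BH-adjusted p of 0.0050 and a fold of 5.67 (2.53 to 12.7). With the mean of each mouse and type in place of single myofibers it was -2.28 and did not pass (adjusted p = 0.0641), nor did it pass on slide 1 alone (0.116) or on the other slides alone (0.115), where fewer myofibers were tested.

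The third probe, A_55_P2050602, matches 1 transcript and lies at chr9:49323381-49323440. It ran from 4.00 through 5.64 to 6.78 in type 1 and from 1.91 through 3.49 to 5.75 in type 2B, with a difference of -2.08 ± 0.48 and a BH-adjusted p of 0.0065. Only 2 of 10 type 2B myofibers, E8.3 and E9.6, gave a signal significant over background here, against all 11 type 1 myofibers. The probe therefore met the filter on dim probes through type 1 alone. With the other spots left out E8.3 and E9.6 alone stood for type 2B, and the difference was -0.05 and did not pass. That fit keeps myofibers by their signal, so that it cannot decide whether the types differ. With normexp and its offset the difference was -0.62 and passed. The size is therefore uncertain, and this probe adds little to it on its own.

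Within slides the direction held for Ncam1 at every probe. At A_51_P380309 the difference was -2.04 on slide 1, -2.75 on slide 2 and -3.48 on slide 3, and at the lead probe it was -2.50, -2.07 and -3.75. Without S6.4 both were -2.58. The probes did not rank the myofibers of a type alike: the correlation of their deviations from the type means was 0.37, 0.06 and -0.14 for the 3 pairs (n = 21), where the probe pairs of Chrna1, Musk, Ache and Colq gave 0.66 to 0.89.

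Other cell types that carry Ncam1 could have come along with a myofiber. By qPCR the study found CD56 (Ncam1), Pax7, Myf5 and Myod1 lower in single slow and fast myofibers than in satellite cells. It considered the satellite cell share of the myofiber RNA negligible. Markers of such cell types were also read in the arrays used here. Of 9 satellite cell genes 8 were tested and 1 passed, Sdc4 (-1.36), with 4 at an unadjusted p under 0.05. Pax7, which defines these cells, differed by -1.37 ± 0.54 without passing and was well above background in 8 of 11 type 1 and 2 of 10 type 2B myofibers, while Myf5 was well above background in 0 and 1. Calcr differed by -1.01 and Cdh15 by 1.12 in the other direction, neither past the threshold. The summed signal of the list was 1600 to 9230 in type 1 and 1450 to 9270 in type 2B. Its brightest gene was Myod1, at 10.73 in type 1 and 10.76 in type 2B, so that the sum says little about the dimmer genes. None of 8 Schwann cell genes passed (340 to 1070 and 612 to 4520 summed), 2 of them at an unadjusted p under 0.05, although Sox10 was well above background in all myofibers and Cdh19 in none. None of the 8 tested of 11 motor nerve terminal genes passed, 1 of them at an unadjusted p under 0.05; Mnx1 and Nefl were well above background in 0 myofibers, and the sums of 43500 to 70700 and 40900 to 74100 came mostly from Snap25, at 15.85 in type 1 and 15.88 in type 2B. In connective tissue 1 of 4 passed, Col3a1 (-2.45), with sums of 281 to 4750 and 212 to 689. No endothelial or blood cell gene of the 4 tested in each passed, with 1 and 0 at an unadjusted p under 0.05. Their sums were 1540 to 3670 and 1500 to 4180 for endothelial genes and 359 to 8630 and 382 to 765 for blood genes, type 1 first. The brightest endothelial gene was Kdr, at 10.94 in both types. Tek, far dimmer, differed by -1.78 ± 0.56 without passing (adjusted p = 0.052) and was well above background in 9 of 11 and 4 of 10 myofibers. Over the lead probes of all named genes 7.74% passed, and the share at an unadjusted p under 0.05 was not counted. The part of these cells in the Ncam1 difference was not tested.

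**Figure D2:**
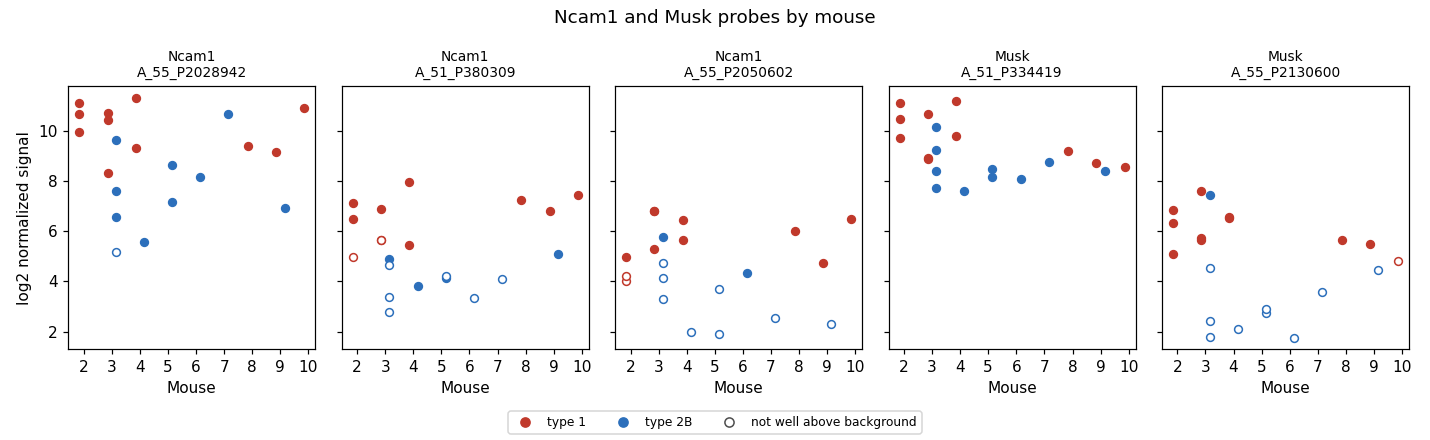
Ncam1 and Musk probes by mouse (x axis, mouse number; y axis, log2 normalized signal; red, type 1; blue, type 2B; open circles, not well above background). At Ncam1 A_51_P380309 10 of 11 type 1 myofibers lie above every type 2B myofiber; at Musk A_55_P2130600 1 of 10 type 2B myofibers was well above background.

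Musk was higher in type 1 at both probes, and with mouse as a fixed block neither passed (adjusted p = 0.452 and 0.149, lead probe first). The lead probe, A_51_P334419 at chr4:58386538-58386597, matches 0 RefSeq transcripts in the array's annotation, which assigns it to an Ensembl transcript. It ran from 8.57 through 9.72 to 11.19 in type 1 and from 7.60 through 8.38 to 10.13 in type 2B. The ranges overlapped widely. The difference was -1.26 ± 0.37, or 2.40-fold (1.41 to 4.09), with a BH-adjusted p of 0.037, and it was the least firm of the 5: it passed in 13 of 30 fits that left out 1 myofiber or 1 mouse, with differences no larger in size than -1.61. It was lost without S6.4, S11.3, S7.2, S14.2, S15.2, S9.4, E10.4, E11.9, E8.3, E9.5, E9.6, E12.5 or E15.3, each left out alone, and without mouse 2, 4, 5 or 6. It was also lost with means per mouse (adjusted p = 0.0999) and with slide as a fixed block (0.161).

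The dimmer Musk probe, A_55_P2130600 at chr4:58387070-58387129, matches all 4 RefSeq transcripts in the array's annotation. It ran from 4.81 through 5.74 to 7.61 in type 1 and from 1.76 through 2.80 to 7.44 in type 2B. The means of the mice did not overlap, and 9 of 10 type 2B myofibers lay below every type 1 myofiber; the exception was E14.3, at 7.44. The difference was -2.66 ± 0.55, with a BH-adjusted p of 0.0024. The probe was well above background in 10 of 11 and 1 of 10 myofibers, and with the spots not significant over background left out the difference was -1.84 and did not pass. That fit kept only the 5 of 10 type 2B myofibers with a significant signal, E14.3 among them, so that it selects myofibers by their signal. With normexp and its offset the difference was -0.80 and passed, so that the size is uncertain and no fold is given. Within slides 1, 2 and 3 it was -3.91, -1.61 and -1.28, and at the lead probe -1.75, -0.68 and -0.36, largest in size on the bright slide at both probes.

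**Figure D3:**
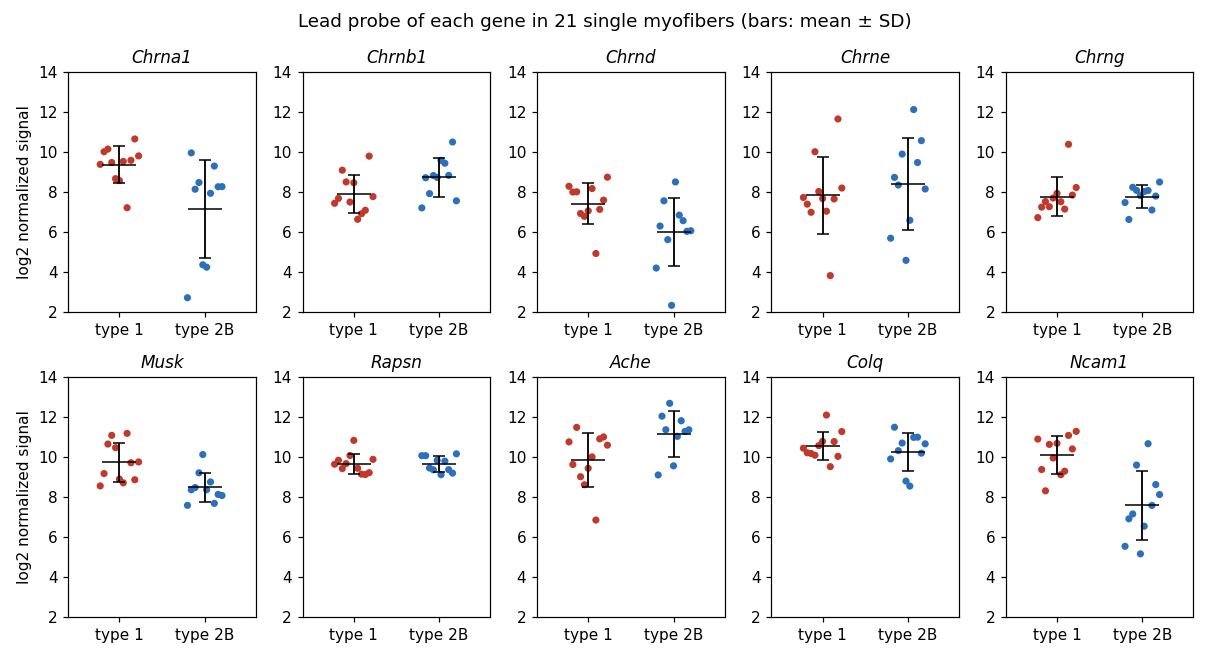
Lead probe of each of the 10 genes in single myofibers (y axis, log2 normalized signal; points, myofibers; bars, mean ± SD; red, type 1, n = 11; blue, type 2B, n = 10, or 9 for Ache). Rapsn is the tightest of the 10, while Chrna1 in type 2B and Chrne in both types spread over several units.

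Among the receptor genes none passed with single myofibers and all mice. Chrna1, the alpha subunit that carries most of the transmitter-binding surface, averaged 9.37 ± 0.93 (SD, n = 11) in type 1 and 7.17 ± 2.45 (n = 10) in type 2B at its lead probe, A_52_P533707. Type 1 ran from 7.22 through 9.53 to 10.65, and type 2B from 2.72 through 8.20 to 9.95. The type 2B spread came mainly from 3 low values: E10.4, E14.3 and E15.3 lay below every type 1 myofiber. None of these 3 was well above background, while 11 of 11 type 1 and 7 of 10 type 2B myofibers were. The difference was -2.18 ± 0.74 (95% interval -3.71 to -0.65) with a BH-adjusted p of 0.079, and it passed without E11.9 (-2.49). With spots not significant over background left out it was -1.46 and did not pass (adjusted p = 0.304), in a fit that selects myofibers by their signal. Within slides the difference was -2.11, -0.69 and -5.46. The second probe gave -1.64 ± 0.89, with an adjusted p of 0.35, and deviated with the first across the myofibers (r = 0.89).

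Chrnd, the delta subunit, ran from 4.93 through 7.60 to 8.74 in type 1 and from 2.34 through 6.18 to 8.50 in type 2B, a difference of -1.40 ± 0.57 with an adjusted p of 0.17. With means per mouse and type it was -1.64 and passed (adjusted p = 0.0434). Chrnb1, the beta subunit, went the other way: 6.64 through 7.68 to 9.79 in type 1 and 7.21 through 8.78 to 10.50 in type 2B, a difference of 0.85 ± 0.41 with an adjusted p of 0.27. Neither gene separated the types, although the Chrnb1 difference was alike on the 3 slides, at 0.92, 1.04 and 0.89.

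Chrne, the adult subunit, was the most variable lead probe. It ran from 3.82 through 7.67 to 11.65 in type 1 and from 4.59 through 8.54 to 12.12 in type 2B, a 313-fold range over the 21 myofibers. The lowest value was that of S6.4. The SD of Chrne within a type was 2.11, S6.4 included, and 99.0% of all probes tested had a smaller one. The difference between the types, 0.59 ± 0.85, had a 95% interval of -1.17 to 2.36, which leaves room for a difference of either sign. Chrng, the fetal subunit, was well above background in all 21 myofibers and did not pass, at 0.00 ± 0.34 (95% interval -0.71 to 0.70); S7.2 stood highest at 10.38, and the other 20 lay between 6.63 and 8.50. Chrne overlaps the gene 4930544D05Rik in the annotation, and the amplified, labelled cDNA is not stated to keep the strand, so that transcripts of the 2 genes may not be told apart. The same holds where Ncam1 overlaps Gm11149, Chrna1 overlaps Gm30940, Ache overlaps Gm42456 and Mir8116, and Rapsn overlaps Gm13778.

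Rapsn, which ties the receptors together under the membrane, was the steadiest member. It ran from 9.13 through 9.65 to 10.84 in type 1 and from 9.13 through 9.63 to 10.17 in type 2B, a difference of -0.02 ± 0.22 with a 95% interval of -0.47 to 0.43. Its SD within a type was 0.449. Over the member probes the median SD was 1.201, against 0.83 over all probes tested and 0.60 over those well above background in all 21 myofibers.

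Ache was higher in type 2B on average at both probes without passing. The lead probe, printed above, ran from 6.86 through 10.02 to 11.49 in type 1 and from 9.11 through 11.37 to 12.69 in type 2B, where the spot of E9.6 was flagged as an outlier and left out (n = 9). The difference was 1.31 ± 0.53 with an adjusted p of 0.17, and at the second probe 1.16 ± 0.43 with an adjusted p of 0.11. S6.4 was the lowest type 1 myofiber at both probes, and without it the differences were 1.01 and 0.94. The direction was not the same on every slide: the lead probe gave 0.89, 2.25 and -0.82.

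Colq did not pass at either probe. The lead probe ran from 9.53 through 10.45 to 12.11 in type 1 and from 8.56 through 10.50 to 11.50 in type 2B, a difference of -0.29 ± 0.35, and the second probe gave 0.32 ± 0.54. The signs of the 2 probes differ, and both intervals hold 0. At the second probe E7.7 stood highest, at 12.44, and without it the difference was -0.10.

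Several members moved together from myofiber to myofiber within a type. Over the deviations from the type means, Chrne went with Ncam1 at r = 0.75 (n = 21), Chrna1 with Ache at 0.73 (n = 20), Chrna1 with Chrne at 0.70 and Chrna1 with Colq at 0.65; Chrnd and Ache gave 0.65. Without the 2 myofibers farthest from the median of the first gene of each pair these became 0.85, 0.74, 0.66, 0.64 and 0.41, so that the last rests in part on those myofibers. These are descriptions over 45 pairs of lead probes, and the myofibers share mice, slides and amplification. The pair of Chrne and Ncam1 was stronger in type 2B (r = 0.93) than in type 1 (0.45). That of Chrna1 and Colq was too (0.82 and 0.22), while the other pairs named gave 0.59 to 0.86 in either type. These contrasts were not tested. The correlation of Chrne and Ncam1 rested on the lead Ncam1 probe: with the other 2 Ncam1 probes Chrne gave 0.31 and -0.25. Rapsn and Musk stood outside the group. Rapsn gave -0.21 to 0.25 with the other members, and Musk gave -0.49 with Chrnd and -0.41 with Colq, and these became -0.06 and -0.15 without the 2 myofibers farthest from the median.

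A few myofibers were low or high for many members at once. S6.4 lay below its type's mean for 9 of the 10 lead probes, at -4.01 for Chrne and -2.99 for Ache, and above it for Musk alone, by 1.45. Among type 2B myofibers E10.4 lay below for 9 of 10, and E14.3 deviated by -2.80 for Chrna1, -3.83 for Chrne and -3.66 for Chrnd while it lay above by 1.65 for Musk. E14.3 was not well above background for Chrna1, Chrne or Chrnd. E7.7 lay above for all 10, by 3.70 for Chrne and 3.07 for Ncam1. S6.4, E10.4 and E7.7 were on slides 1, 1 and 4, and E14.3 on slide 3. Without S6.4 the differences between the types were -2.40 for Chrna1, -1.65 for Chrnd, 0.19 for Chrne and -1.12 and -2.61 for the Musk probes. The part of RNA amount, slide or the stretch of the myofiber taken was not tested.

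**Figure D4:**
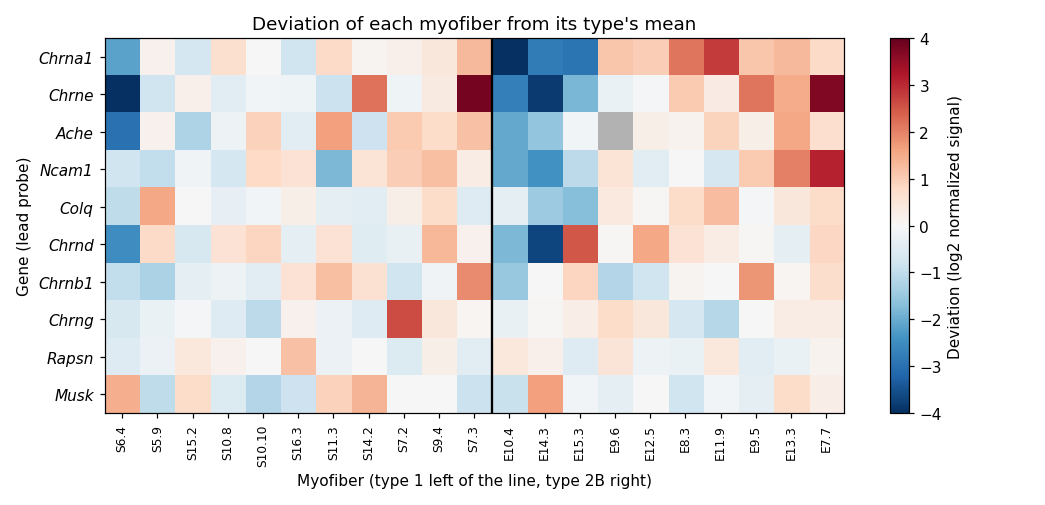
Deviation of each myofiber from the mean of its type (x axis, myofibers, type 1 left of the line; y axis, lead probe of each gene; color, log2 normalized signal, limited to 4 either way; grey, not measured). S6.4, E14.3 and E10.4 are low for most receptor genes and for Ache, and E7.7 is high for Chrne and Ncam1; Rapsn shows little color.

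The genes most like the 3 most variable lead probes were looked up among 16397 genes well above background in at least 50% of the myofibers, by the correlation of deviations over the 21 myofibers. For Chrne they were Ncam1 (0.75), the calcium pump gene Atp2a2 (0.74) and Crym (0.74). For Chrna1 they were Crym (0.91), a thyroid hormone binding protein gene, the kinase gene Rps6ka1 (0.90) and 4930544D05Rik (0.81), the gene that overlaps Chrne. For Chrnd they were 2900016J10Rik (0.80), Gm5610 (0.75) and Naaa (0.74), which shared no name with the other lists.

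Because Chrna1 and Chrne deviated together and Chrng did not (r = -0.03 and 0.08), the 160 bases upstream of their annotated starts are shown. They are RefSeq sequences of GRCm38.p6, present in the table used here for 6 of the 10 members. Capitals mark CAGCTG, the E-box core that myogenic factors prefer, and CCGGAA, the N-box of synaptic genes that GABP binds, both searched on both strands. The stretches lie at chr2:73580339-73580498 on the minus strand for Chrna1, chr11:70619195-70619354 on the minus strand for Chrne and chr1:87205651-87205810 on the plus strand for Chrng.
Chrna1: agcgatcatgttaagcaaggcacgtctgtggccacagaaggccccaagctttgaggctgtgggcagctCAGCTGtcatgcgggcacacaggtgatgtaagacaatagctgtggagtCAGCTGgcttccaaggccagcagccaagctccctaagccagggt
Chrne: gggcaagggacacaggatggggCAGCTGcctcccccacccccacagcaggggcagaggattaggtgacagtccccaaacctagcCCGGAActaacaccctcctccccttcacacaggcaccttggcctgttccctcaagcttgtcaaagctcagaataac
Chrng: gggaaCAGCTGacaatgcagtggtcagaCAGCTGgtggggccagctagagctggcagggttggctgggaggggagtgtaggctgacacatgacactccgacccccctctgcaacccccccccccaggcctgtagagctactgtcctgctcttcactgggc

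CAGCTG begins at -92 and -44 from the start of Chrna1, at -138 from that of Chrne and at -155 and -132 from that of Chrng, and CCGGAA at -76 from that of Chrne. Over 32851 promoters, 9.0% hold CAGCTG and 9.6% hold CCGGAA in the same stretch. Chrna1 and Chrne, which deviated together, and Chrng, which did not, all hold the first motif. Of the other members with a sequence, Ache, which deviated with Chrna1 (r = 0.73), holds neither motif in this stretch, nor does Chrnb1. Musk, which stood outside the group, holds CAGCTG at -68.

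The wider set of junction genes held 38 that anchor, signal to or surround the synapse, of which 37 were tested. There were 8 higher in type 1 and 2 higher in type 2B, where 7.74% of the lead probes of all named genes passed, 4.17% and 3.56% in these directions. The median difference was -0.44, against 0.03 over those lead probes. Lrp4, the agrin receptor, averaged 8.38 ± 1.18 in type 1 and 6.73 ± 0.72 in type 2B, a difference of -1.66 ± 0.41, and the means of the mice did not overlap. Cttn, the actin regulator cortactin, differed by -1.41 ± 0.31, Etv4, a transcription factor of synaptic nuclei, by -1.28 ± 0.31, and Utrn, the dystrophin relative of the junction, by -2.25 ± 0.57. Nid1, a basal lamina gene, differed by -2.02 ± 0.51. It was well above background in 6 of 11 type 1 and 0 of 10 type 2B myofibers. Its type 1 values reached down to 2.85 and its type 2B values up to 5.09, so that no fold is given. The muscle sodium channel gene Scn4a went the other way, 12.20 ± 0.53 against 13.32 ± 0.49, a difference of 1.12 ± 0.24. The MuSK partner Dok7 (-0.38 ± 0.25) and the agrin gene Agrn (-0.15 ± 0.31) did not pass. The count of 10 was 1 with mouse as a fixed block, 4 with slide as a fixed block, 4 with a replicate block and 2 by the methods' t-test. Of all probes 2.95%, 6.48%, 6.1% and 2.28% passed in these settings. Without mouse 3 or without mouse 9 the count was 6, where 5.08% and 6.42% of all probes passed.

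Genes known to rise after denervation gave 4 of 14 higher in type 1 and 0 higher in type 2B, with a median difference of -0.01. Over the lead probes of all named genes 4.17% and 3.56% passed in these directions. At an unadjusted p under 0.05, whose share over all probes was not counted, there were 6. Among them Myh8 went the other way (0.51 ± 0.19). The count of 4 was 2 with mouse as a fixed block and 0 by the methods' t-test, where 2.95% and 2.28% of all probes passed. The 4 were Sln, Myh3, Dach2 and Cdkn1a. Sln, Myh3 and Dach2 met the filter on dim probes through type 1 alone, with significant signals in 1, 2 and 4 of 10 type 2B myofibers. The share of such probes among all was not counted. With no filter on dim probes the count was also 4, where 6.17% of all probes passed. Sln, a regulator of the calcium pump that slow muscle makes, was well above background in all 11 type 1 and 0 type 2B myofibers and was at least 413-fold higher in type 1. Myh3, an embryonic myosin, was likewise measured in type 1 alone and was at least 25.6-fold higher there. Dach2 differed by -3.16 ± 0.61. It was well above background in 7 of 11 type 1 and 2 of 10 type 2B myofibers, so that the size is uncertain. Cdkn1a, a cell cycle inhibitor, differed by -1.36 ± 0.41. Myog, which drives receptor genes in denervated muscle, differed by -1.39 ± 0.49 and did not pass, and the atrophy genes Trim63 (0.59 ± 0.53) and Fbxo32 (0.05 ± 0.29) did not pass either.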

How the data were processed

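Single-colour Agilent mouse arrays of 21 single myofibers were read. RNA was amplified for whole transcriptome before labelling, without spike-ins. Per the labels and file headers the authors deposited scanner output of Agilent Feature Extraction 10.7.3.1; the processed intensity is background-subtracted and detrended, not normalized between arrays. Here control spots were removed, flagged outlier spots set missing, probes with the same name averaged, and arrays quantile normalized; values are log2 of the deposited intensity so normalized. Differences were tested with limma 3.58.1 in R 4.3.3, with mouse as a random block (consensus correlation -0.017), and p-values adjusted by Benjamini-Hochberg over 46926 probes. Background correction, normalization, filters, blocks, slides and omitted myofibers were varied. Folds given as "at least" use the dimmest signal well above background. All member probes are reported. Other genes were named by list and order of p, at most 6 a list, with defining markers. Dok7, Agrn, Myog, Myh8, Trim63, Fbxo32, Myod1, Kdr and Tek were added after their values were seen. Members and lists were chosen with earlier results of these data known. P-values cover the spread between myofibers, several from 1 mouse. Chrnd, Rapsn, Colq and Ncam1 promoters were not used here, and 1 probe sequence is not reported here. The pipeline was tested on simulated data. A table of the authors' normalized values was not used here.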

Additional observations from a re-analysis of the deposited data

Results flagged for a closer look

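At Musk probe A_55_P2130600 the type 2B myofiber E14.3 stood apart from the other 9, at 7.44 against 4.51 for the next. The gap was 0.516 of the group's range, above Dixon's critical value for 10 samples. Chance gives such a gap in about 1 group in 20, and the 16 member probes were looked at in type 2B only, since type 1 has more than 10 myofibers. The same myofiber was highest in type 2B at the lead Musk probe, at 10.13.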

How the results depend on the processing

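Over 18 other settings Ncam1 A_51_P380309 passed in 18, Ncam1 A_55_P2050602 in 14, Ncam1 A_55_P2028942 and Musk A_55_P2130600 in 13 and Musk A_51_P334419 in 8, and all 5 stayed higher in type 1; the first 4 passed in 30 of 30 fits that left out 1 myofiber or mouse. Normexp kept all 5 calls but shrank the dim probes, Ncam1 A_51_P380309 from -2.48 to -1.0, Ncam1 A_55_P2050602 from -2.08 to -0.62 and Musk A_55_P2130600 from -2.66 to -0.80. Means per mouse ended the calls at Ncam1 A_55_P2028942 (-2.28) and Musk A_51_P334419 (-1.14), and mouse as a fixed block ended both Musk calls. Of the 5 member probes called, 3 were called with spots not significant over background missing, 3 with mouse as a fixed block and 2 on slide 1 alone. There were 2 on the other slides, 1 by the Welch t-test on the linear signal and 1 with Bonferroni. Of all probes these settings called 4.92%, 2.95%, 3.01%, 3.58%, 2.28% and 1.43%, in that order. Leaving out 1 myofiber or mouse gave 4 to 6 member probes, 4 to 5 higher in type 1 and 0 to 1 higher in type 2B (Ache A_55_P2109327, without mouse 10 or its myofiber S10.10). The 10 postsynaptic genes became 1, 4, 3, 5, 2 and 0 with mouse fixed, with slide fixed, on slide 1, on the other slides, by the t-test and with Bonferroni, and 6 to 10 with 1 myofiber or mouse left out, 6 without mouse 3. The 4 denervation genes became 2 with spots missing, with mouse fixed, on slide 1 and with Bonferroni, 0 by the t-test, and 3 to 4 with 1 left out. The cause of these changes was not tested. The fits on part of the slides had fewer samples, and the Bonferroni threshold is stricter.

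Signs turned for probes that never passed. Chrna1 A_55_P2130987 was 0.34 by the t-test, Chrne -0.46 with mouse fixed, and Colq A_55_P2068784 -0.41 with mouse fixed, -0.22 with slide fixed and -0.10 to 0.71 with 1 left out, the lowest without E7.7. Chrng, at 0.00, became 0.01 with the 75th percentile, 0.00 with no mouse block and without mouse 3, 0.18 with means per mouse and 0.30 off slide 1, and -0.11 to 0.27 with 1 left out. Rapsn, at -0.02, became 0.03, 0.16, 0.18, 0.47, 0.18, 0.04 and 0.19 with the 75th percentile, means per mouse, slide fixed, slide 1, no mouse 3, no E13.3 and E12.5, and scan day fixed, the last chosen after seeing the data, and -0.10 to 0.18 with 1 left out.

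Replicate numbers did not pair the myofibers: same-numbered ones had a median correlation of -0.03. With a replicate block 5 member probes, 4 postsynaptic and 3 denervation genes passed, and Ncam1 A_51_P380309 differed by -2.38. Dim probes limit what can be read: off slide 1 38.65% to 63.06% of probes were well above background, on it 73.21% to 79.82%.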
